A study of Mus musculus with 15 samples.

Results

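The genes described are 10 genes of the circadian clock and its output, out of 32285 genes counted in single nuclei of the mouse dorsal hippocampal formation. They are taken by name, and the list was drawn up with earlier results of these data known: Per1, Per2, Per3, Dbp, Tef, Nr1d1, Nr1d2, Arntl, Ciart and Bhlhe41. The question was whether the mice were ordered alike for these genes in cell classes that have nothing to do with each other, and whether that order followed the study group or the batch number in the labels. The nuclei came from 15 adult female C57BL6/J mice, all wild-type, in 3 groups: 6 nulliparous mice that never bred (NP), 4 reproductively experienced dams that were left undisturbed with their pups until weaning (control RE), and 5 dams that were given little nesting material and were separated from their pups each day in the late postpartum period (stress RE). The labels name these groups NP, ControlPP and StressPP, and each mouse is 1 library. Mice were kept on a light:dark cycle and killed by rapid decapitation, and the tissue was bilateral frozen punches that could include bordering thalamus and cortex. The time of day at which each mouse was killed, its age at that point and its oestrous stage are not given in the sources used here. That time is the variable that clock transcripts are best known to follow, so that time of day and any other difference between mice cannot be told apart in these data.

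The molecular clock is a feedback loop that runs in nearly every cell. The proteins BMAL1 (gene Arntl) and CLOCK bind E-box sequences and switch on the Per and Cry genes, whose proteins then block BMAL1 and CLOCK, and they also switch on Nr1d1 and Nr1d2, whose proteins REV-ERBα and REV-ERBβ repress Arntl in turn. Output factors such as DBP and TEF bind D-box sequences and carry the rhythm to other genes, and in the hippocampus clock transcripts are known to cycle with the time of day and to respond to glucocorticoids.

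In GRCm38, the build of the files, the annotated genes lie as follows: Per1 at chr11:69095217-69109960 (plus strand), Per2 at chr1:91415982-91459324 (minus strand), Per3 at chr4:151003652-151044665 (minus strand), Dbp at chr7:45705088-45710203 (plus strand), Tef at chr15:81802421-81826863 (plus strand), Nr1d1 at chr11:98767932-98775333 (minus strand), Nr1d2 at chr14:18204054-18239127 (minus strand), Arntl at chr7:113207465-113314126 (plus strand), Ciart at chr3:95878503-95882251 (minus strand) and Bhlhe41 at chr6:145858243-145865558 (minus strand). 

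The promoters of 7 of the genes are shown because they hold, or lack, the letters through which the factors above are known to act. RefSeq held promoters for 9 of the 10 genes, with 12 starts in all, and the one without an entry was Per2. In the 250 bases before each start, the E-box CACGTG was found on either strand in 4 of the 9 genes (Per1, Tef, Ciart and Bhlhe41), and it was present in 6.02% of 32851 mouse promoters of that length. The related CACGTT was found in Nr1d1 (3.85% of promoters), the D-box TTATGTAA was found in Per3 (0.819%), and the REV-ERB and ROR core, searched as TAGGTCA or TGGGTCA, was found in none of them (5.38%). CACGTG and CACGTT differ in their last letter, so that no site of 6 letters counts as both. The following windows are 5′ to 3′ on the gene's strand in GRCm38.p6, in lower case with the matched letters in capitals, and Dbp, in which no motif was matched, is given for comparison. In Per1 the E-box began 166 bases before the first start, in Tef 127 and in Bhlhe41 153. Ciart held 3, at 116, 58 and 44 bases, Per3 held 2 D-boxes, at 205 and 158 bases, and the Nr1d1 match, at 28 bases, is on the other strand and so reads AACGTG. A match is a description of letters, and its absence from a window says nothing about the factor.
Per1 (chr11:69098699-69098948, plus strand): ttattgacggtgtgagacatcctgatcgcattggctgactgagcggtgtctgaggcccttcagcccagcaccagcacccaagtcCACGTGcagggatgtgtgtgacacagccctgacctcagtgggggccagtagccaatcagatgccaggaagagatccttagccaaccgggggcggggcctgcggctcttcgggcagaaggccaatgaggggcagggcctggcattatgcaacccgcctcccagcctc
Per3 (chr4:151044666-151044915, minus strand): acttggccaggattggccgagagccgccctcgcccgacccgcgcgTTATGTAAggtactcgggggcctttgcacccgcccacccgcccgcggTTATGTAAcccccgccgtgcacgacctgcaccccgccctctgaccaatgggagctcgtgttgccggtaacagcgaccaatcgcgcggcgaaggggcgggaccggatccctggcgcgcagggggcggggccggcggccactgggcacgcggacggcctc
Tef (chr15:81802423-81802672, plus strand): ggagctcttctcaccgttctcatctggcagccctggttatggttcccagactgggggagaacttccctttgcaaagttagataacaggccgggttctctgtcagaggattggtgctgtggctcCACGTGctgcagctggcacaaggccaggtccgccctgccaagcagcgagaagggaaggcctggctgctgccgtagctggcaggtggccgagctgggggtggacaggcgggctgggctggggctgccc
Nr1d1 (chr11:98775378-98775627, minus strand): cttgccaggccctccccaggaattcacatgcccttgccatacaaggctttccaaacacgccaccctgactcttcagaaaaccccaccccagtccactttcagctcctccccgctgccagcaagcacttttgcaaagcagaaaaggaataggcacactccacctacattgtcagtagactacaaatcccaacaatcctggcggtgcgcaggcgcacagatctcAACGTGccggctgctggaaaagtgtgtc
Ciart (chr3:95882229-95882478, minus strand): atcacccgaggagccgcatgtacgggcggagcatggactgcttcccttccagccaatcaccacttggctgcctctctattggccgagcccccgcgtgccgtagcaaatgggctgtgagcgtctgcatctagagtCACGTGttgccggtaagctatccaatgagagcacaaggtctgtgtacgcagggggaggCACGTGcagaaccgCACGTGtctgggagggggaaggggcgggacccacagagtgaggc
Bhlhe41 (chr6:145865421-145865670, minus strand): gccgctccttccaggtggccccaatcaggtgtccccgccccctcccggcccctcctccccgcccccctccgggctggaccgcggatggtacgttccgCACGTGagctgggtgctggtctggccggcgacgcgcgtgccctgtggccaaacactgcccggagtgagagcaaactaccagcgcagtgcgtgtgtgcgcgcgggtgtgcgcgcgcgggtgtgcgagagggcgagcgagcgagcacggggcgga
Dbp (chr7:45704997-45705246, plus strand): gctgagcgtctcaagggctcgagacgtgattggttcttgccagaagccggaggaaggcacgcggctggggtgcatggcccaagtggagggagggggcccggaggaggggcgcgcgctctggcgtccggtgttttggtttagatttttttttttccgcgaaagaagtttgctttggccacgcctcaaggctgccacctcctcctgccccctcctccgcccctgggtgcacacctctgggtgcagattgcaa

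All 10 genes were detected, and the levels of most of them differed more between cell classes than between mice. For Ciart the spread over mice was large beside the differences between classes. Levels are CPM, that is the unique molecular identifiers (UMIs) of a gene summed over the nuclei of a class in a mouse and scaled to the same total in every class and mouse, and the mean ± SD is over the 15 mice. They are not divided by transcript length, so that a level is compared between classes and not between genes, and a class is called "-like" because it was named from marker genes after clustering. The 10 classes with at least 50 nuclei in every mouse were used for levels, of which dentate granule-like (34882 nuclei), astrocyte-like (9520), oligodendrocyte-like (29680) and microglia-like (4731) were the 4 unrelated classes between which the mice were compared. The vascular leptomeningeal-like class (1534 nuclei) and the astrocyte-like class were the highest and second highest for Per1, Per3, Dbp, Tef, Nr1d1 and Nr1d2. For Per3, the period gene regarded as least needed for the core loop, the level was 271.6 ± 60.4 CPM in vascular leptomeningeal-like nuclei, 164.8 ± 26.2 in astrocyte-like nuclei and 61.2 ± 8.79 in dentate granule-like nuclei. Dbp, the output activator, stood at 92.9 ± 23.1, 72.95 ± 18.98 and 12.3 ± 3.51 CPM in the same classes, and Nr1d2, the gene of REV-ERBβ, at 304 ± 49.3, 181 ± 19.8 and 58.4 ± 5.45 CPM. For Per3, Dbp, Tef and Nr1d2 every mouse's astrocyte-like value was above every mouse's value in the class ranked next.

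The other genes followed other orders. Per2, the period repressor that also responds to hormones, was high in vascular leptomeningeal-like (91.3 ± 21.2 CPM), oligodendrocyte precursor (OPC)-like (66.6 ± 13.2) and astrocyte-like nuclei (66.5 ± 13.1), and the last of these overlapped. Arntl, whose protein BMAL1 drives the loop, followed yet another order: it was high in astrocyte-like (95.7 ± 8.52 CPM), thalamic-like (94.95) and CA1-like nuclei (91.7). It was low in vascular leptomeningeal-like (22.3), OPC-like (21.7) and oligodendrocyte-like nuclei (22.9). Per2 was highest in the vascular leptomeningeal-like and OPC-like classes but low in oligodendrocyte-like nuclei (12.2 CPM), and both genes were high in astrocyte-like nuclei. These low Arntl levels do not exceed the estimate of free RNA given further on. It was 117% of the level in vascular leptomeningeal-like and OPC-like nuclei and 132% in oligodendrocyte-like nuclei. Bhlhe41, the gene of the repressor DEC2, was highest in microglia-like nuclei (60.05 ± 11.0 CPM) and nearly absent from CA3-like nuclei (1.77 CPM). Ciart, the gene of the repressor CHRONO, was at 10.3 ± 3.67 CPM in astrocyte-like and 4.06 ± 0.938 CPM in dentate granule-like nuclei, and its 10.5 ± 7.42 CPM in vascular leptomeningeal-like nuclei rests on 0 to 8 UMIs per mouse, too few to pass the filter on low counts or to be ranked. Besides the steps named above, no overlap between neighbours was seen for Nr1d2 from dentate granule-like to CA3-like, Arntl from CA1-like to CA3-like, and Bhlhe41 from GABAergic-like to CA3-like. All other neighbours in these orders overlapped over the mice.

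**Figure D1:**
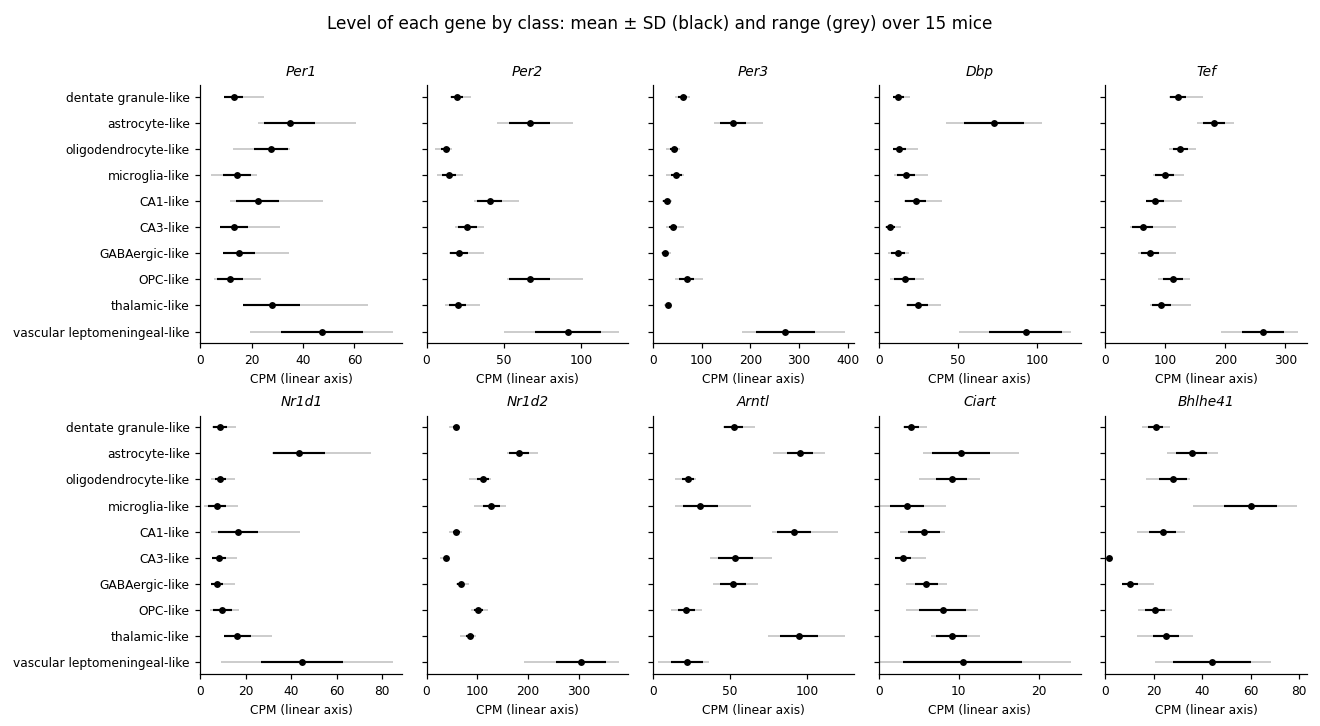
Level of each of the 10 genes in 10 classes, in CPM on a linear axis, with the mean (point), SD (black line) and range (grey line) over 15 mice. Vascular leptomeningeal-like and astrocyte-like nuclei stood highest for 6 of the genes (Ciart, with 0 to 8 UMIs per mouse in the former, is not counted), while Bhlhe41 was highest in microglia-like nuclei at 60.05 CPM and Arntl was as high in thalamic-like (94.95 CPM) as in astrocyte-like nuclei (95.7 CPM).

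Free RNA in the droplets adds counts of a gene to nuclei that do not transcribe it. An upper estimate of its share of a class was made in each mouse from the level of neuronal markers in glial and vascular classes, or of glial markers in neuronal classes, relative to the whole library. The median over mice was 29.4% in dentate granule-like, 43.9% in astrocyte-like, 50.9% in oligodendrocyte-like and 42.6% in microglia-like nuclei. For single genes the estimate came to 132% of the Arntl level in oligodendrocyte-like nuclei, 109.5% of Per2 there, 73.15% of Dbp there, 74.9% of Nr1d1 in microglia-like nuclei and 372% of Bhlhe41 in CA3-like nuclei. Levels at or below their estimate were read as background, and since free RNA is shared between the classes of a mouse, correlations between classes are also given after it was subtracted.

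As to the libraries, the summed UMIs ran from 40602582 to 96211264 per mouse over 123901 nuclei in all. Batch 1 held NP 1, NP 2 and stress RE 2 and no control RE mouse by the labels, although the study's methods describe all groups as present in each batch, so that what the batch number stands for is not settled in the sources used here. It had 40602582 to 56502443 UMIs, below batch 2 (65872952 to 83278285) and batch 3 (69251723 to 96211264), both of which held 2 mice of every group. Libraries shared at most 0.461% of the barcodes of the smaller one. In oligodendrocyte-like nuclei, NP 2 (3.11%) and stress RE 2 (6.08%) held few nuclei of the main cluster, numbered 0, which took 18.7% to 79.3% of this class in the other 13 mice.

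No member differed between the study groups by edgeR after adjustment over all genes of a class, and DESeq2 made 1 call. With edgeR's quasi-likelihood test, fitted on group alone, 0 of 144 gene-class tests over 19 classes passed an adjusted p of 0.05 for control RE against NP, where all genes gave 0.000568%. For stress RE against control RE it was 0 of 144, where all genes gave 0.00114%, and for stress RE against NP 0 of 144, where all genes gave 0%. The joint test of the 3 groups with batch kept in the fit also gave 0 (0.0017% of all tests), and in the 10 large classes the 3 contrasts gave 0 with batch as a term as well. The lowest edgeR adjusted p of the members were 0.806 for control RE minus NP (Tef in mossy-like nuclei, log2 difference -0.74, SE 0.253) and 0.872 for stress RE minus control RE (Tef in Cajal-Retzius-like nuclei, 0.30, SE 0.224). By edgeR they were 0.617 for stress RE minus NP (Dbp in pericyte or smooth muscle-like nuclei, 0.74, SE 0.278) and 0.918 in the joint test (Per2 in subiculum-like nuclei), all in small classes. At an unadjusted p under 0.05 there were 12, 4, 21 and 16 of 144, where all genes gave 3.08%, 2.36%, 3.34% and 2.83%. DESeq2, run in the 10 large classes, called Per2 in CA3-like nuclei for stress RE against NP (adjusted p 0.0495), which was its 1 call among all 125195 tests of that contrast (0.000799%).

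Most of the differences from NP had the same sign. Of the 144 tests, 109 were below 0 for control RE minus NP (median log2 difference -0.15) and 109 for stress RE minus NP (-0.14), while stress RE minus control RE split 71 against 73 (median -0.00). Over all genes 50.7%, 50.4% and 50.7% were below 0 in the same order. The comparisons with NP share the NP mice, and the classes share the mice, so that these counts are not independent of one another. By member, Per1 was lower in stress RE than NP in 14 of 14 classes (median log2 difference -0.44), Nr1d1 was lower in control RE than NP in 11 of 11 (-0.43), and Dbp was lower in control RE than NP in 13 of 15 (-0.27) and higher in stress RE than control RE in 14 of 15 (0.35). Per2 was lower in stress RE than NP in 15 of 16 classes (-0.33) and in control RE than NP in 14 of 16 (-0.18). Others did not share the sign: Arntl was higher in control RE than NP in 10 of 14 classes (0.03), and Dbp was higher in stress RE than NP in 9 of 15 (0.02). None of these differences passed the adjusted test by edgeR. Part of the shared sign moved with batch 1, which holds NP 1 and NP 2 and no control RE mouse. In the 10 large classes the members were below 0 in 76 of 96 tests for control RE minus NP (median -0.15) and 75 of 96 for stress RE minus NP (-0.13), and with batches 2 and 3 alone in 67 of 95 (-0.09) and 61 of 95 (-0.06). For Nr1d1 in control RE minus NP it was 9 of 9 (median -0.47) with all batches and 6 of 9 (-0.07) with batches 2 and 3 alone, and in stress RE minus NP the median turned from -0.23 to 0.18. Dbp in control RE minus NP was below 0 in 10 of 10 (-0.25) and then in 7 of 10 (-0.09), while in stress RE minus control RE it was above 0 in 10 of 10 (0.32) and then in 9 of 10 (0.30). That Dbp difference leaned on stress RE 3, the mouse with the highest ribosomal protein gene level in dentate granule-like nuclei and the highest mitochondrial share. Without it the log2 difference was 0.20 in place of 0.35 in dentate granule-like, 0.19 in place of 0.42 in oligodendrocyte-like, 0.44 in place of 0.63 in microglia-like and 0.19 in place of 0.26 in astrocyte-like nuclei. Per1 in stress RE minus NP was below 0 in 10 of 10 (-0.44) and then in 9 of 10 (-0.31). Per2 in stress RE minus NP was below 0 in 10 of 10 (-0.37) and then again in 10 of 10 (-0.30). In control RE minus NP it was below 0 in 8 of 10 (-0.20) and then again in 8 of 10 (-0.18). Within the batches, the means of NP, control RE and stress RE in dentate granule-like nuclei were 7.93, 6.98 and 9.07 CPM (batch 2) and 7.21, 6.38 and 7.77 CPM (batch 3) for Nr1d1. They were 9.54, 9.29 and 11.2 CPM (batch 2) and 12.6, 10.6 and 15.8 CPM (batch 3) for Dbp, and 11.6, 10.4 and 11.0 CPM (batch 2) and 13.4, 12.2 and 11.7 CPM (batch 3) for Per1.

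By the overlap of the mice, Per2 was the member whose NP mice stood apart from the dams, in CA1-like and CA3-like pyramidal nuclei. The lower Per2 of stress RE mice was not particular to these classes, since its difference from NP was below 0 in all 10 large classes (median -0.37). In CA3-like nuclei the 6 NP mice ran from 25.5 to 36.9 CPM with a median of 33.9, the 4 control RE mice from 20.2 to 24.5 and the 5 stress RE mice from 18.2 to 24.4. In CA1-like nuclei the NP mice ran from 43.6 to 59.6 CPM (median 46.8), the control RE mice from 36.2 to 38.1 and the stress RE mice from 30.6 to 38.3. Thus every NP mouse was above every dam in both classes, which held for 2 of the members' 96 gene-class pairs in the 10 large classes, where 0.0248% of all pairs did so. The log2 difference of stress RE from NP was -0.53 (SE 0.108) in CA3-like and -0.45 (SE 0.0966) in CA1-like nuclei, with unadjusted p of 0.000128 and 0.000206 in the model across all genes by edgeR, and it did not pass adjustment over all genes (adjusted p 0.947 and 1). For control RE minus NP it was -0.47 (SE 0.115; edgeR adjusted p 0.936) in CA3-like and -0.33 (SE 0.102; edgeR adjusted p 0.982) in CA1-like nuclei. Free RNA was estimated at 32.9% of the Per2 level in CA3-like and 7.94% in CA1-like nuclei, and these differences are from counts before it was subtracted.

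Because every NP mouse was above every dam in CA1-like and CA3-like nuclei, NP had to stand higher inside each batch as well. The means by batch therefore only give the size of that difference, and between the dams their order in CA3-like nuclei was not the same in batches 2 and 3. In CA3-like nuclei of batch 2 the group means were 33.9 CPM for NP, 22.4 for control RE and 22.1 for stress RE, and in batch 3 they were 28.4, 22.7 and 22.8. In CA1-like nuclei they were 47.0, 37.15 and 34.4 in batch 2 and 46.0, 36.96 and 34.7 in batch 3. With batches 2 and 3 alone the log2 difference of stress RE from NP was -0.46 in CA3-like and -0.42 in CA1-like nuclei, and with batch as a term it was -0.53 and -0.45 (edgeR adjusted p 0.678 and 1). In dentate granule-like nuclei the groups overlapped, with NP at 18.3 to 29.0 CPM, control RE at 15.0 to 20.6 and stress RE at 16.7 to 20.2. Over all nuclei of a mouse NP ran from 26.0 to 37.2 CPM, above control RE (22.4 to 25.2) and stress RE (20.8 to 25.6), but such a sum moves with the share of each cell class and with the RNA per nucleus, which cannot be told apart in it.

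**Figure D2:**
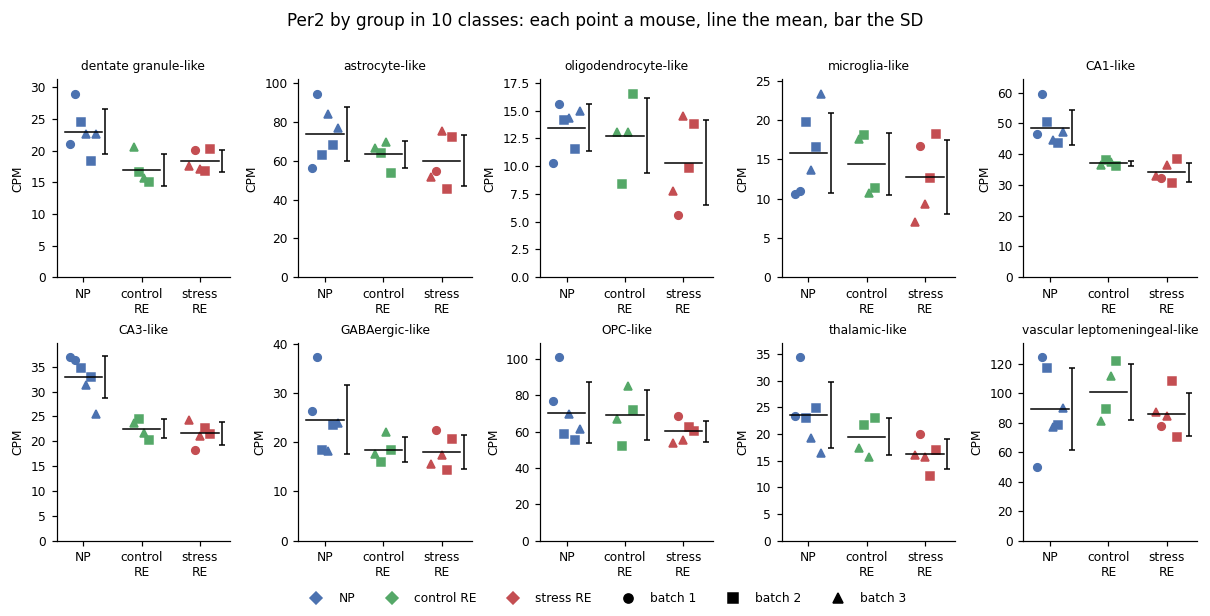
Per2 in CPM (linear axis, from 0) in 10 classes, with 1 point per mouse coloured by group and shaped by batch, the horizontal line at the group mean and the bar giving the SD (n = 6 for NP, 4 and 5 for the dams without and with stress). In CA1-like and CA3-like nuclei the lowest NP mouse (43.6 and 25.5 CPM) is above the highest dam (38.3 and 24.5 CPM), and in the other 8 classes the groups overlap.

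Per1, the period repressor that is rapidly induced by many stimuli, did not overlap between control RE and stress RE mice in oligodendrocyte-like nuclei. The control RE mice were at 32.9, 32.99, 31.1 and 31.9 CPM and the stress RE mice at 15.2, 12.52, 27.1, 25.1 and 22.1 CPM, without overlap, while the NP mice ran from 25.4 to 35.0. This was 1 of 96 members' gene-class pairs in which every stress RE mouse was below every control RE mouse, against 0.456% of all pairs. The count was near that share and is not read as a result about the members. The log2 difference was -0.67 (SE 0.171; edgeR adjusted p 0.971, unadjusted p 0.00127). It was -0.55 in batches 2 and 3 alone and -0.62 in nuclei of cluster 0 alone. Stress RE 2, which held few nuclei of that cluster, had the lowest value, and without it the log2 difference was -0.55, the end nearest 0 of the range of -0.77 to -0.55 over the mice left out in turn. Free RNA was estimated at 35.7% of the Per1 level in these nuclei, and its estimated share of the class was also lower in stress RE mice, with a median of 44.9% there against 50.8% in control RE and 54.8% in NP mice. With free RNA subtracted the log2 difference was -0.98 (SE 0.279; edgeR adjusted p 1.00).

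By the overlap of the mice, Per3 was the only member whose batches 2 and 3 stood apart in any of the 10 large classes. In dentate granule-like nuclei the 6 mice of batch 2 were at 60.1 (NP 3), 55.1 (NP 5), 55.1 (control RE 2), 53.9 (control RE 4), 45.7 (stress RE 4) and 55.3 CPM (stress RE 5). The 6 mice of batch 3 were at 76.6 (NP 4), 70.3 (NP 6), 69.3 (control RE 1), 66.4 (control RE 3), 66.2 (stress RE 1) and 66.7 CPM (stress RE 3). The batches did not overlap, with 54.2 ± 4.70 CPM against 69.3 ± 3.96 (SD, n = 6 each), and batch 1 lay across both at 50.2 to 69.6. In astrocyte-like nuclei batch 2 was at 140.5 ± 8.40 CPM (125.8 to 149.9) and batch 3 at 185.7 ± 22.2 (164.5 to 225.8), again without overlap. The same held in CA3-like nuclei (30.5 to 40.8 against 41.2 to 63.2 CPM) and in thalamic-like nuclei (23.1 to 30.3 against 30.6 to 35.6 CPM). These 4 were the members' only gene-class pairs of 96 with batch 3 wholly above batch 2, where 1.29% of all pairs were, and all 4 were Per3. In all 10 classes the log2 ratio of the batch means lay between 0.25 and 0.44 (median 0.37). The highest ratio in a single class was larger for Ciart (0.58) and Dbp (0.48), whose batches overlapped.

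In the test of batch with group as a covariate, 3 of 144 gene-class tests passed, where 2.69% of all tests did, and the 3 were Per3, Nr1d1 and Nr1d2 in dentate granule-like nuclei. In that class 13.9% of 16732 genes passed. At an unadjusted p under 0.05 there were 32 of 144, where all genes gave 19.2%. DESeq2 made 10 calls of members in the large classes, where 8.68% of all tests passed: these 3, Per1 in dentate granule-like, Per3 and Dbp in astrocyte-like, Per3 in CA3-like, Per2 and Nr1d1 in thalamic-like and Nr1d2 in oligodendrocyte-like nuclei (adjusted p 0.000428 to 0.0391). For Per3 the edgeR adjusted p was 0.0151, and it stayed between 0.00592 and 0.0388 when each mouse was left out. With batches 2 and 3 alone Per3 passed in dentate granule-like nuclei (edgeR adjusted p 0.0103, where 4.74% of genes passed) and in astrocyte-like nuclei (0.0343, where 1.16% passed). Batch and group can be told apart in batches 2 and 3, which are balanced, but what else differed between the batches, the hour of killing among it, is not given in the sources used here.

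**Figure D3:**
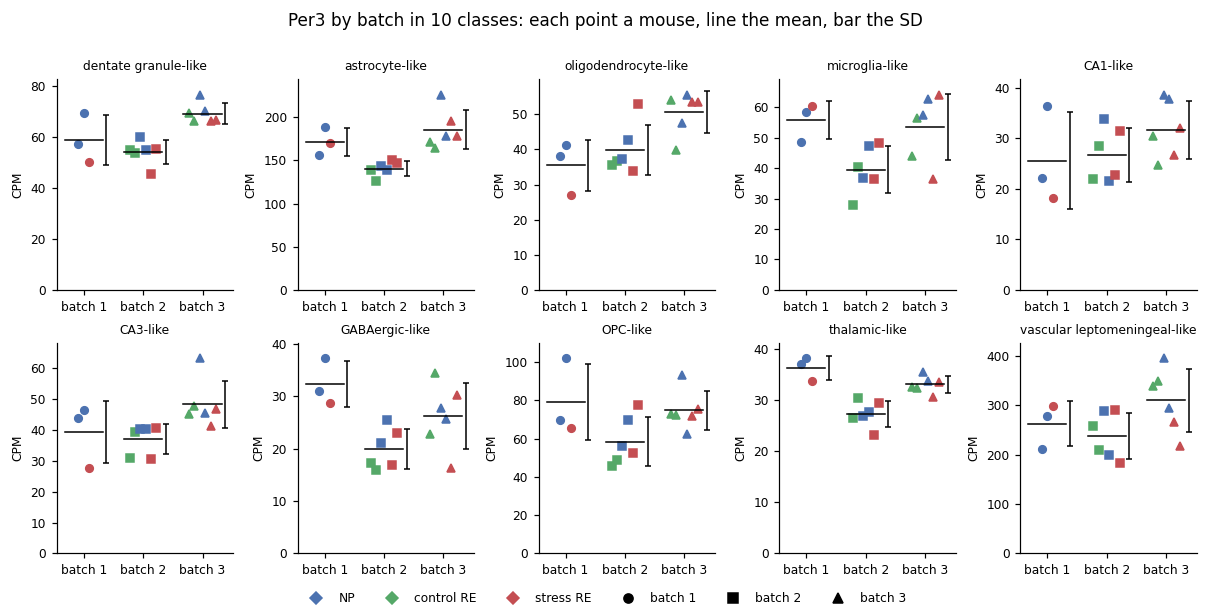
Per3 in CPM (linear axis, from 0) by batch in 10 classes, with 1 point per mouse (3 in batch 1, 6 in batch 2, 6 in batch 3) coloured by group, the line at the batch mean and the bar giving the SD. The 6 mice of batch 3 lie above the 6 of batch 2 in dentate granule-like, astrocyte-like, CA3-like and thalamic-like nuclei, for example at 164.5 to 225.8 against 125.8 to 149.9 CPM in astrocyte-like nuclei.

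The PAR bZIP activators Dbp and Tef leaned the same way as Per3. Batch 3 had the higher mean in 10 of 10 classes for Dbp (log2 ratio 0.18 to 0.48, median 0.35) and in 10 of 10 for Tef (0.03 to 0.24), but neither passed the batch test in any class by edgeR, and Dbp passed in astrocyte-like nuclei by DESeq2 (adjusted p 0.0391). Nr1d1 and Bhlhe41 leaned the other way, with batch 3 higher in 3 and 1 of 10 classes. For Per1, Per2, Nr1d2, Arntl and Ciart batch 3 was higher in 6, 5, 7, 5 and 8 of 10.

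The batch calls for the REV-ERB genes depended on single mice. Nr1d1 in dentate granule-like nuclei was at 14.9 CPM in NP 1 and 15.5 in NP 2, while the other mouse of batch 1, stress RE 2, was at 9.26 and the 12 mice of batches 2 and 3 ran from 4.97 to 10.95. The batch means were 13.2 ± 3.43 (n = 3), 7.99 ± 1.59 (n = 6) and 7.12 ± 1.20 CPM (n = 6), with an edgeR adjusted p of 0.0327. NP 1 and NP 2 were also the highest in astrocyte-like nuclei, at 74.9 and 59.7 CPM against 31.6 to 49.4 in the other 13 mice. Without NP 2 the Nr1d1 batch call was lost (edgeR adjusted p 0.125), and it was lost without any one of 7 mice (0.0527 to 0.125). Nr1d2 in dentate granule-like nuclei was lowest in stress RE 2, at 44.9 CPM, with batch means of 53.5, 59.5 and 59.8 CPM and an edgeR adjusted p of 0.0328, which was 0.144 without that mouse, and the call was lost without any one of 5 mice (0.0511 to 0.144), 2 of them in batch 1. The calls of both genes were also absent with batches 2 and 3 alone (edgeR adjusted p 0.412 and 0.810).

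**Figure D4:**
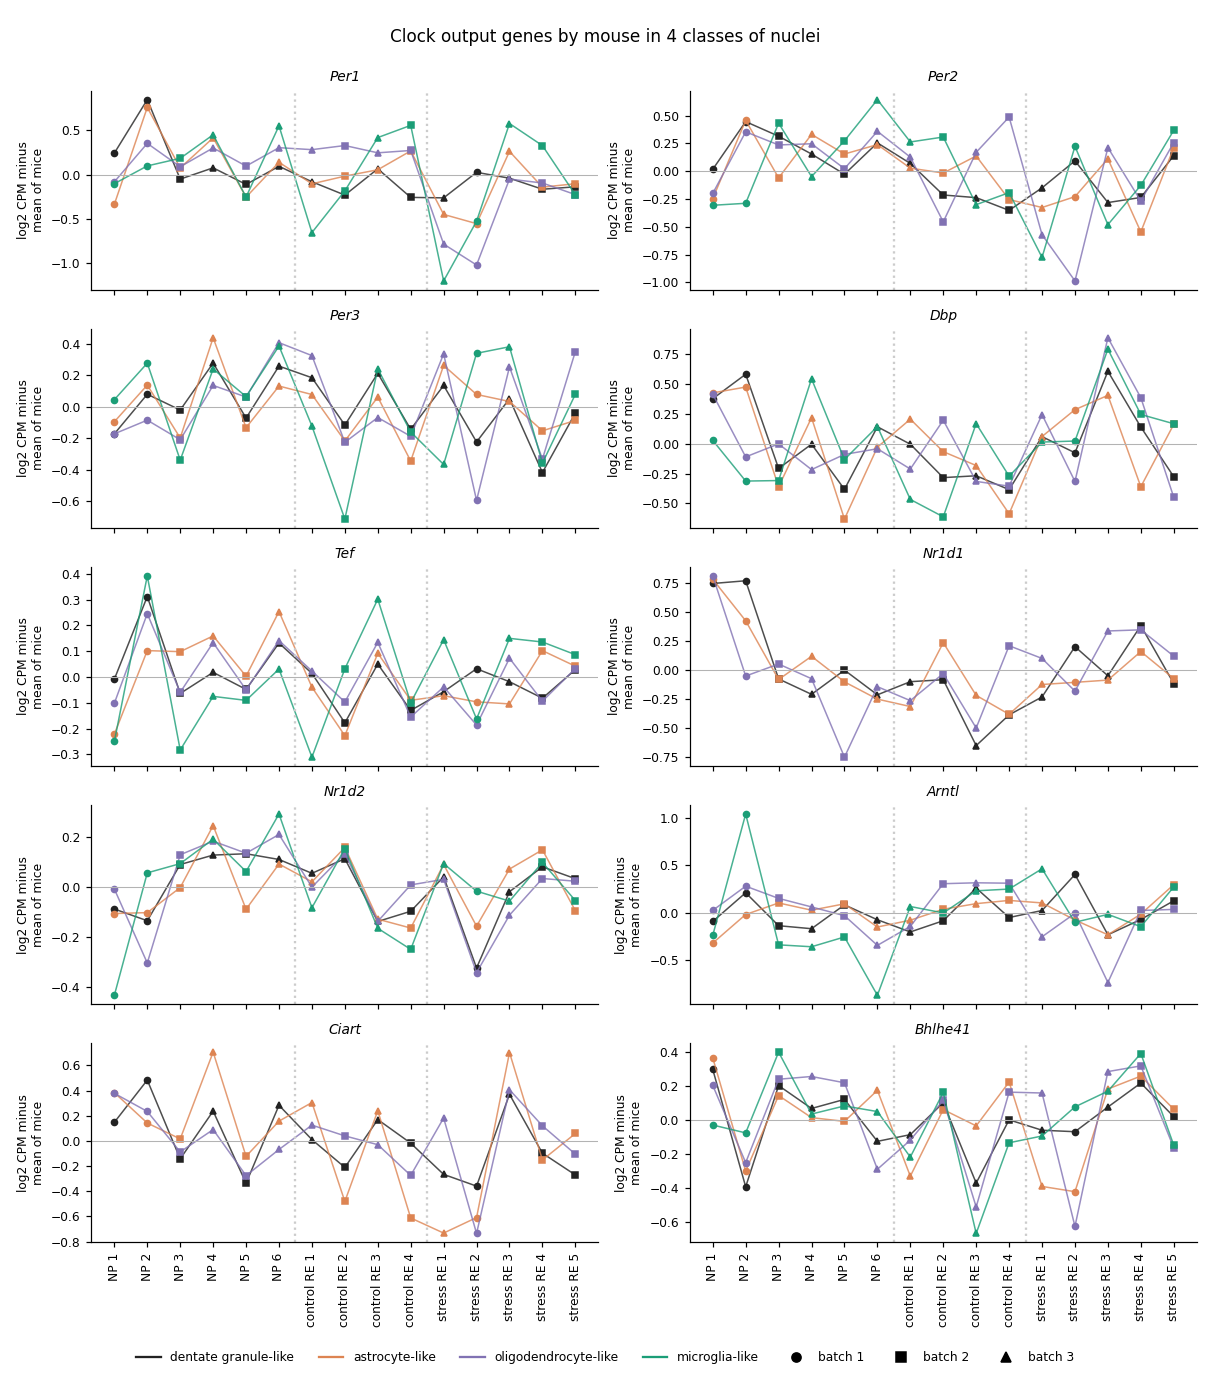
Each of the 10 genes by mouse, as log2 CPM minus the mean of the 15 mice, with 1 line per class (dentate granule-like, astrocyte-like, oligodendrocyte-like and, except for Nr1d1 and Ciart, microglia-like) and the batch of each mouse as the marker. The lines of Nr1d2 run close together, with stress RE 2 lowest in dentate granule-like nuclei at 44.9 CPM, and those of Nr1d1 peak at NP 1 or NP 2, while the lines of Arntl and Per2 cross more often.

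The mice did come in a similar order in unrelated classes. For each gene and each pair among the 4 main classes, the values of the 15 mice were correlated. All 54 coefficients of the members were positive, from 0.12 to 0.90, and 16 passed a permutation test after Benjamini-Hochberg adjustment over all genes of the pair. The 54 include those of Arntl and Per2 with oligodendrocyte-like nuclei, where their levels were read as background, and none of these passed. Positive coefficients were common for all genes, and the classes of a mouse share its library, batch and free RNA. Between dentate granule-like and astrocyte-like nuclei the median r of all genes was 0.48, against 0.42 on residuals after batch and 0.23 with free RNA subtracted. Between dentate granule-like and astrocyte-like nuclei 5 of 10 members passed, where 34.8% of genes did, and the median r was 0.64 for the members and 0.48 for all genes. For dentate granule-like against oligodendrocyte-like nuclei it was 6 of 10 (46.9% of genes), with medians of 0.62 and 0.55, and between dentate granule-like and microglia-like nuclei 1 of 8 (16.7% of genes), with 0.41 and 0.35. Between astrocyte-like and oligodendrocyte-like nuclei it was 2 of 10 (32.3% of genes), with 0.55 and 0.45, between astrocyte-like and microglia-like nuclei 2 of 8 (16.7% of genes), with 0.32 and 0.31, and between oligodendrocyte-like and microglia-like nuclei 0 of 8 (25.5% of genes), with 0.37 and 0.39. The members' shares were therefore near those of all genes. In the last pair no member passed with Pearson's r, and 1, Nr1d2, did with Spearman's rho.

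**Figure D5:**
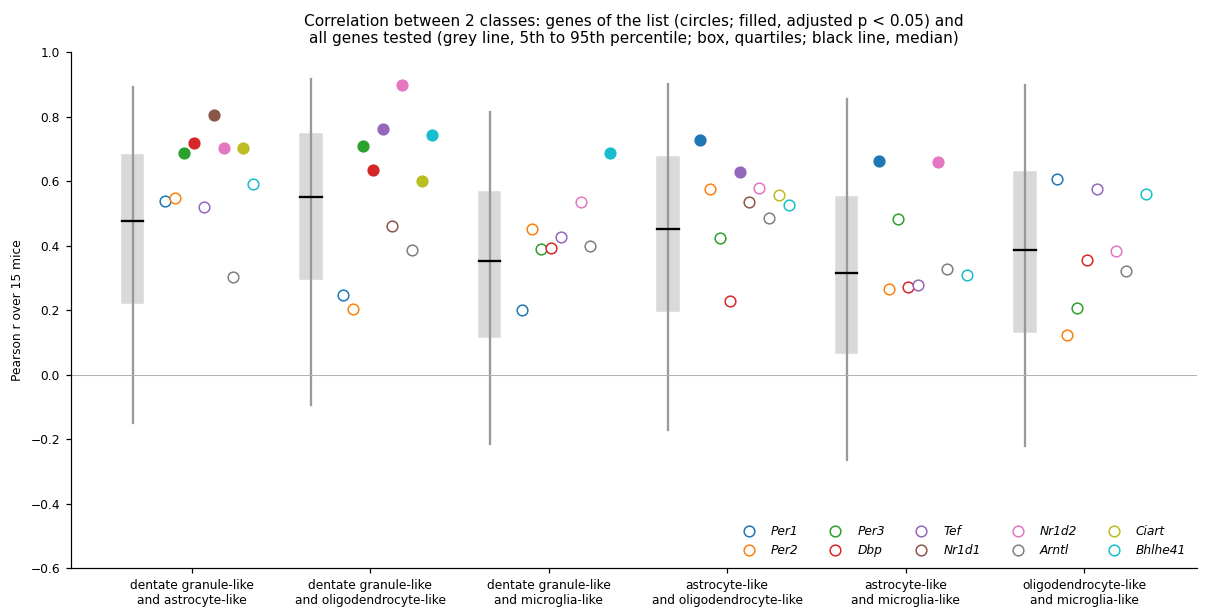
Pearson r over 15 mice between 2 classes, for 6 pairs of classes, with a circle for each member (filled where the adjusted permutation p is under 0.05) and, for all genes tested, the 5th to 95th percentile (grey line), quartiles (box) and median (black line). All 54 circles lie above 0, the highest is Nr1d2 at 0.90 between dentate granule-like and oligodendrocyte-like nuclei, and all lie within the 5th to 95th percentile of all genes.

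The highest single coefficients of the members were those of the REV-ERB genes, Nr1d2 and Nr1d1, in pairs with dentate granule-like nuclei. In the pairs of glia Per1 was the highest member, and between dentate granule-like and microglia-like nuclei it was Bhlhe41. Nr1d2 was at 58.2, 57.5, 62.3, 66.25, 61.0 and 60.9 CPM in dentate granule-like nuclei of NP 1 to 6, at 60.8, 62.1, 50.0 and 53.45 in control RE 1 to 4, and at 59.5, 44.9, 61.0, 62.05 and 55.9 in stress RE 1 to 5. In oligodendrocyte-like nuclei the same mice were at 111.0, 91.8, 122.5, 127.6, 116.5 and 125.5, then 111.9, 119.3, 98.7 and 109.8, then 112.5, 84.4, 107.8, 113.9 and 109.4 CPM. NP 4 was highest and stress RE 2 lowest in both classes. Pearson's r was 0.90 (permutation p 1e-05, the smallest the permutations can give; adjusted p 0.000142) and Spearman's rho 0.93 (permutation p 1e-05, adjusted p 0.000242). Pearson's r was 0.83 without the 2 mice farthest from the median, 0.79 within batch 2 and 0.90 within batch 3 (6 mice each; batch 1 holds too few for a value), 0.62 on residuals after group and batch, 0.875 with oligodendrocyte-like cluster 0 alone and 0.66 with free RNA subtracted. Between dentate granule-like and astrocyte-like nuclei Nr1d2 had r 0.70 (permutation p 0.0028, adjusted p 0.0130) and rho 0.78 (permutation p 0.00123, adjusted p 0.00929). Here r was 0.65 without the 2 farthest mice, 0.59 and 0.87 within batches 2 and 3, and 0.52 with free RNA subtracted. Between astrocyte-like and microglia-like nuclei Nr1d2 passed as well, with r 0.66 (permutation p 0.00663, adjusted p 0.0422) and rho 0.80 (permutation p 0.0007, adjusted p 0.0105). This r was 0.56 without the 2 farthest mice, 0.80 and 0.75 within batches 2 and 3, and 0.42 with free RNA subtracted. In the other pairs Nr1d2 passed by rho only. Between dentate granule-like and microglia-like nuclei r was 0.54 (permutation, adjusted p 0.139) and rho 0.70 (adjusted p 0.0461). Between astrocyte-like and oligodendrocyte-like nuclei r was 0.58 (permutation, adjusted p 0.0654) and rho 0.70 (adjusted p 0.0251). Between oligodendrocyte-like and microglia-like nuclei r was 0.38 (permutation, adjusted p 0.301) and rho 0.74 (adjusted p 0.0190).

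Nr1d1 followed NP 1 and NP 2. Between dentate granule-like and astrocyte-like nuclei r was 0.81 (permutation p 0.00066, adjusted p 0.0045) and rho 0.69 (permutation p 0.00579, adjusted p 0.0274). With free RNA subtracted r was 0.74. It was 0.50 without the 2 farthest mice, 0.71 within batch 2 and 0.14 within batch 3, so that much of the relation rested on those mice. In oligodendrocyte-like nuclei NP 1 was again highest, at 15.3 CPM, but NP 2 was at 8.36, among the rest (4.67 to 11.4). Over the 36 pairs among the large classes in which it was tested Nr1d1 had the highest median r of the members, 0.58, with all 36 positive and 34 above the median of all genes in the same pair.

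Among the repressors, Per1 was led by NP 2. It was at 24.7 CPM there in dentate granule-like nuclei, where the other 14 mice ran from 10.3 to 15.8, and at 60.4 CPM in astrocyte-like nuclei, where they ran from 22.3 to 46.1. NP 2 had the highest Per1 in 9 of the 10 large classes. Between astrocyte-like and oligodendrocyte-like nuclei r was 0.73 (permutation p 0.00183, adjusted p 0.00955) with rho 0.71 (permutation p 0.00376, adjusted p 0.0204). The coefficient was 0.65 without the 2 farthest mice, 0.51 and 0.73 within batches 2 and 3, 0.53 with free RNA subtracted and 0.57 with oligodendrocyte-like cluster 0 alone. Between astrocyte-like and microglia-like nuclei r was 0.66 (permutation p 0.00708, adjusted p 0.0443) and rho 0.75 (permutation p 0.00214, adjusted p 0.0230), from as few as 3 Per1 UMIs per mouse in the microglia-like class. There r was 0.80 without the 2 farthest mice and 0.71 and 0.90 within batches 2 and 3, and Per1 could not be used in this pair with free RNA subtracted.

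Per3 correlated between dentate granule-like and astrocyte-like nuclei with r 0.69 (permutation p 0.00461, adjusted p 0.0190; rho 0.67, permutation p 0.00831, adjusted p 0.0351). It was 0.63 without the 2 farthest mice, but 0.04 within batch 2, 0.50 within batch 3, 0.30 on residuals after batch and 0.54 with free RNA subtracted, so that the relation did not hold within batch 2. With oligodendrocyte-like in place of astrocyte-like nuclei Per3 had r 0.71 (permutation p 0.00319, adjusted p 0.0105) and rho 0.72 (permutation p 0.00333, adjusted p 0.0134). This r was 0.71 without the 2 farthest mice and 0.57 and -0.17 within batches 2 and 3, but 0.18 with free RNA subtracted and 0.48 with oligodendrocyte-like cluster 0 alone. Per2 and Arntl passed in no pair. Per2 had a median r of 0.30 over the 45 pairs of the large classes, the lowest of the members, and all genes had 0.37.

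Of the PAR bZIP genes, Dbp was led by NP 1, NP 2 and stress RE 3. In dentate granule-like nuclei it was at 16.4, 19.4, 10.4, 12.4, 8.71 and 12.7 CPM in NP 1 to 6, at 11.9, 9.63, 9.33 and 8.945 in control RE 1 to 4, and at 12.3, 10.9, 19.3, 13.2 and 9.22 in stress RE 1 to 5. In astrocyte-like nuclei it was at 97.2, 103.1, 55.2, 83.8, 42.5 and 68.9, then 81.2, 66.7, 60.01 and 45.9, then 73.45, 84.8, 99.99, 56.1 and 75.4 CPM. The same 3 mice were highest in both, and NP 5 was lowest in both. Here r was 0.72 (permutation p 0.00268, adjusted p 0.01254) and rho 0.71 (permutation p 0.00416, adjusted p 0.0217). Without the 2 farthest mice r was 0.61, and it was 0.12 within batch 2, 0.78 within batch 3 and 0.63 with free RNA subtracted. With oligodendrocyte-like nuclei Dbp had r 0.63 (permutation p 0.0105, adjusted p 0.0269) and rho 0.59 (permutation p 0.0228, adjusted p 0.0557). Stress RE 3 was at 24.45 CPM there against 8.75 to 16.8 in the other mice, and without it r was 0.45. It was 0.62 without the 2 farthest mice, 0.71 and 0.92 within batches 2 and 3 and 0.77 on residuals after batch, but 0.16 with oligodendrocyte-like cluster 0 alone and -0.21 with free RNA subtracted.

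Tef had r 0.76 between dentate granule-like and oligodendrocyte-like nuclei (permutation p 0.00042, adjusted p 0.00222; rho 0.65, permutation p 0.00953, adjusted p 0.0291), where NP 2 was highest in both, at 163 and 151 CPM. It was 0.64 without the 2 farthest mice and 0.85 and 0.77 within batches 2 and 3. Since NP 2 holds few nuclei of oligodendrocyte-like cluster 0, that cluster was also taken alone, and r was then -0.29, with only 42 nuclei in NP 2 and 63 in stress RE 2. For the whole class r was 0.30 after free RNA was subtracted. Between astrocyte-like and oligodendrocyte-like nuclei Tef had r 0.63 (permutation p 0.012, adjusted p 0.0402; rho 0.65, permutation p 0.00947, adjusted p 0.0387). This r was 0.55 without the 2 farthest mice, 0.42 and 0.79 within batches 2 and 3, 0.46 with free RNA subtracted and 0.24 in cluster 0 alone.

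The remaining repressors gave 4 calls. Ciart had r 0.70 between dentate granule-like and astrocyte-like nuclei (permutation p 0.00373, adjusted p 0.0162; rho 0.70, permutation p 0.00463, adjusted p 0.0234). This r was 0.70 without the 2 farthest mice but -0.52 within batch 2, 0.87 within batch 3 and 0.55 with free RNA subtracted. Its level there came from 43 to 124 UMIs per mouse in the first class and 7 to 48 in the second. With oligodendrocyte-like nuclei Ciart had r 0.60 (permutation p 0.0147, adjusted p 0.0350; rho 0.63, permutation p 0.0151, adjusted p 0.0409). This r was 0.47 without the 2 farthest mice, 0.15 and 0.03 within batches 2 and 3, 0.48 with free RNA subtracted and 0.47 with oligodendrocyte-like cluster 0 alone. Bhlhe41 held up better within batches: between dentate granule-like and oligodendrocyte-like nuclei r was 0.74 (permutation p 0.0016, adjusted p 0.00627; rho 0.78, permutation p 0.00109, adjusted p 0.00587). Here r was 0.67 without the 2 farthest mice and 0.72 and 0.94 within batches 2 and 3, but 0.53 with free RNA subtracted and 0.27 with oligodendrocyte-like cluster 0 alone. For Bhlhe41 in dentate granule-like and microglia-like nuclei it was 0.69 (permutation p 0.00513, adjusted p 0.0365; rho 0.63, permutation p 0.0133, adjusted p 0.0799). Here r was 0.56 without the 2 farthest mice, 0.98 and 0.90 within batches 2 and 3, and 0.52 with free RNA subtracted.

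The genes did not order the mice as 1 set. NP 2 was highest for Per1 in 9 of the 10 large classes, for Tef in 8, for Per2 in 7 and for Arntl in 5. NP 1 was highest for Nr1d1 in 7 and for Bhlhe41 in 4, NP 4 for Per3 in 5 and for Nr1d2 in 4, and stress RE 3 for Ciart in 4. At the low end, stress RE 2 was lowest for Nr1d2 in 6 classes and for Ciart in 4, NP 5 for Dbp in 5, control RE 2 for Tef in 5, stress RE 4 for Per2 in 4 and control RE 3 for Bhlhe41 in 4. NP 1 and NP 2, which lead most often, are both of batch 1, the batch of the shallowest libraries, while the third mouse of that batch, stress RE 2, was often at the low end. These counts were made for the members only, so they do not show that the mice lead or trail for the members more than for other genes. In dentate granule-like nuclei 5.41% of all genes, and 0 of 10 members, had batch 1 wholly above batches 2 and 3. Over the 10 large classes this held for 2 of the members' 96 gene-class pairs. They were Nr1d1 in GABAergic-like nuclei (3.36% of all genes there) and Tef in thalamic-like nuclei (4.84%). The median mitochondrial share per nucleus was highest in stress RE 3 (0.133%), stress RE 2 (0.130%) and NP 2 (0.121%), 3 of the mice named here, and ran from 0.029% to 0.093% in the other 12. The part of depth, batch and mitochondrial share in these orders was not tested. Over the 45 pairs of large classes the median r was 0.49 for Dbp, 0.47 for Nr1d2, 0.46 for Per1, 0.45 for Per3, 0.44 for Tef and 0.31 for Bhlhe41, with 0.34 for Ciart over 28 pairs and 0.31 for Arntl over 36. The median of all genes ran from 0.16 to 0.67 over those pairs.

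Among the genes tested in all 4 main classes, those most like Dbp over the mice were not clock genes. Nr1d1 and Ciart were not tested in microglia-like nuclei, so they were not ranked and their likeness to Dbp is not given. Likeness was the correlation of a gene's log2 CPM with that of Dbp over the 15 mice, averaged over the 4 main classes, for 8768 genes, of which the median was -0.04 and 90% lay between -0.49 and 0.47. The highest were Rpl10a (0.72), Mlf2 (0.68), Naca (0.68), Cyc1 (0.67) and Atp5j2 (0.66), short genes spanning 2.56 to 13.1 kb. Among the lowest were Dennd5b (-0.73), St7 (-0.69), Jakmip2 (-0.68) and Negr1 (-0.68), long genes spanning 114 to 755 kb, where the median span was 36.0 kb. Per3, which is regulated like Dbp in many tissues, was at 0.32 and ranked 1117, and Per1 at 0.26, Tef at 0.14, Bhlhe41 at 0.05, Per2 at 0.00, Nr1d2 at -0.00 and Arntl at -0.39 followed. These means include oligodendrocyte-like nuclei, where the levels of Arntl and Per2 were read as background. For Arntl that class gave -0.59, against -0.20 in dentate granule-like, -0.51 in astrocyte-like and -0.25 in microglia-like nuclei.

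Because a ribosomal protein gene, Rpl10a, led this list, the summed level of 75 ribosomal protein genes was set beside each member. This measure was chosen from the same mice, so that its correlations restate that likeness and are given as a description, with no p. In dentate granule-like nuclei the summed level was highest in stress RE 3 (4859 CPM), NP 1 (4146) and NP 2 (3629), the 3 mice with the highest Dbp, and lowest in stress RE 5 (1372). Over the 15 mice, which share libraries and batches, r of Dbp with it was 0.87 (rho 0.85), with 0.895 without the 2 farthest mice and 0.85 and 0.82 within batches 2 and 3. In this paragraph the farthest mice are those farthest from the median ribosomal protein gene level of the class. In dentate granule-like nuclei they were stress RE 5 and control RE 3, so that the 3 leading mice stayed in. In astrocyte-like, oligodendrocyte-like and microglia-like nuclei they were stress RE 3 and stress RE 5. In oligodendrocyte-like nuclei r of Dbp was 0.72 (rho 0.62), with 0.43 without the 2 farthest mice and 0.81 and 0.74 within batches 2 and 3. In astrocyte-like nuclei it was 0.47 (rho 0.50), with 0.57 without the 2 farthest mice but -0.37 within batch 2 and 0.96 within batch 3. In microglia-like nuclei it was 0.42 (rho 0.25), with 0.21 without the 2 farthest mice and 0.07 and 0.36 within batches 2 and 3. Arntl had r -0.74 (rho -0.64) in astrocyte-like nuclei, with -0.54 without the 2 farthest mice and -0.84 and -0.67 within batches 2 and 3. Its r was -0.41 in dentate granule-like, -0.61 in oligodendrocyte-like (0.10 within batch 2) and -0.13 in microglia-like nuclei (0.16 within batch 3). In oligodendrocyte-like nuclei the Arntl level was read as background. Among the other members r in dentate granule-like nuclei was 0.55 for Nr1d1, 0.53 for Ciart, 0.37 for Per1, 0.26 for Tef and 0.15 for Bhlhe41. It was 0.13 for Per2, 0.03 for Per3 and -0.09 for Nr1d2. Within batches 2 and 3 it was 0.68 and 0.97 for Nr1d1, 0.74 and 0.93 for Bhlhe41 and -0.85 and -0.47 for Per3. With the ribosomal protein gene level of the whole library removed, the correlation of Dbp between dentate granule-like and astrocyte-like nuclei was 0.48 in place of 0.72 and that with oligodendrocyte-like nuclei 0.27 in place of 0.63, while those of Nr1d2 in the same pairs were 0.79 and 0.91. Those of Ciart were 0.60 in place of 0.70 and 0.40 in place of 0.60.

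Other genes of the clock were read from a list of 19. In the group comparisons 0 of their 245 gene-class tests passed by edgeR in any of the 3 contrasts, with 4, 6 and 12 at an unadjusted p under 0.05 for control RE minus NP, stress RE minus control RE and stress RE minus NP, where all genes gave the 3.08%, 2.36% and 3.34% above. In the batch test 9 of 245 passed, where 2.69% of all tests did, of which those of 3 genes are described. Csnk1e, the kinase that marks PER proteins for degradation, passed in 4 neuronal classes: dentate granule-like (edgeR adjusted p 0.0102), CA3-like (0.02135), thalamic-like (0.0258) and CA1-like (0.0335). Clock, the partner of BMAL1, passed in CA1-like (0.0434) and thalamic-like nuclei (0.0467) and Usp2 in thalamic-like nuclei (0.0178). Cry2, a repressor that acts with the PER proteins, had r 0.85 between dentate granule-like and astrocyte-like nuclei (permutation, adjusted p 0.00122; rho 0.84, adjusted p 0.00311). Csnk1e had r 0.84 between dentate granule-like and oligodendrocyte-like nuclei (permutation, adjusted p 0.00100; rho 0.69, adjusted p 0.0202). Btrc had r 0.80 between astrocyte-like and oligodendrocyte-like nuclei (permutation, adjusted p 0.00211; rho 0.79, adjusted p 0.00560). Rora, which activates Arntl at the sites that the REV-ERB proteins repress, had r 0.88 between oligodendrocyte-like and microglia-like nuclei (permutation, adjusted p 0.000210; rho 0.90, adjusted p 0.000323). Rorb, which acts at the same sites, split by class: r was 0.83 to 0.86 in the pairs without astrocyte-like nuclei but -0.37, -0.29 and -0.34 between astrocyte-like nuclei and the dentate granule-like, oligodendrocyte-like and microglia-like classes, none of the last 3 past the permutation test (adjusted p 0.282, 0.420 and 0.425). For each of these genes save Rorb the pair shown is the one with the highest coefficient among the 6 pairs of the 4 main classes. Of all genes, 34.8% passed between dentate granule-like and astrocyte-like nuclei and 46.9% between dentate granule-like and oligodendrocyte-like nuclei. Between astrocyte-like and oligodendrocyte-like nuclei 32.3% passed, and between oligodendrocyte-like and microglia-like nuclei 25.5%. The coefficients of these genes are not shown within batches or with free RNA subtracted. As a description, r with the ribosomal protein gene level of the same class ran from -0.67 to -0.64 for Rora and from -0.74 to -0.68 for Btrc. It ran from -0.19 to 0.32 for Cry2 and from -0.02 to 0.48 for Csnk1e. Over the 45 pairs of large classes the median r was 0.74 for Csnk1e, 0.64 for Rora, 0.53 for Cry2 and 0.48 for Btrc, but 0.08 for Rorb and 0.08 for Cry1, the other cryptochrome. Among the 6 pairs Cry1 was lowest between oligodendrocyte-like and microglia-like nuclei, with r -0.49 (permutation, adjusted p 0.157).

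Genes that respond within minutes to neuronal activity, and genes that respond to glucocorticoids, were counted because both kinds of stimulus also induce Per1. Of 59 gene-class tests of 8 immediate early genes 0 passed in any group contrast by edgeR (2, 1 and 3 at an unadjusted p under 0.05, where all genes gave 3.08%, 2.36% and 3.34%) and 2 passed for batch, where 2.69% of all tests did, both Nr4a1, in CA1-like and dentate granule-like nuclei. Their summed level in dentate granule-like nuclei was 49.5 to 61.8 CPM in batch 1, 29.5 to 52.8 in batch 2 and 35.3 to 50.1 in batch 3. Of 81 tests of 7 glucocorticoid-responsive genes 1 passed for stress RE against control RE, where 0.00114% of all tests did: Fkbp5, which dampens the glucocorticoid receptor, fell in vascular leptomeningeal-like nuclei (log2 difference -1.04, SE 0.166, edgeR adjusted p 0.00916). At an unadjusted p under 0.05 this contrast had 15 of 81, where all genes gave 2.36%. In the other 2 contrasts 0 passed (8 for control RE minus NP and 3 for stress RE minus NP at an unadjusted p under 0.05), and 3 passed for batch (2.69% of all tests), Fkbp5 in CA3-like and Errfi1 and Plin4 in dentate granule-like nuclei. The part of activity and of glucocorticoids in the members' values was not tested.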

How the data were processed

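Single-nucleus RNA was measured in 15 mice, with groups and batches read from the sample labels and mice numbered in accession order. The authors deposited raw UMI counts per barcode, made with Cell Ranger 7.1.0 against mm10 (GRCm38) per the submitters' notes, which also name Seurat 4.3.0; the deposited counts carry no normalization or correction for free RNA. Barcodes with under 200 genes or over 5% mitochondrial counts and 10005 likely doublets (by simulated doublets, at a rate that scaled with the number of barcodes) were removed, leaving 123901 of 134019. Nuclei were clustered with Leiden (igraph 0.11.9; resolution 1, 30 components, 15 neighbours, 2000 variable genes) and classes named from markers. Counts were summed per mouse and class (at least 10 nuclei, 3 mice a group) and tested with edgeR 4.0.16 (TMM, quasi-likelihood, Benjamini-Hochberg over the genes of a class; group alone for the contrasts, group and batch for the batch test and the joint group test), or DESeq2 1.42.0 as the alternative. Correlations over mice used TMM-scaled log2 CPM (prior count 2) and 100000 permutations, two-sided, exact within batches. Scripts were tested on simulated data. The members and lists were chosen with earlier results of these data known. Named genes were the members, the other clock genes of the list that passed a test, and the 5 genes most and 5 least like Dbp; some of these genes are not reported here. Replicates are separate mice.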

Additional observations from a re-analysis of the deposited data

Results flagged for a closer look

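Within a group and class, 13 of 150 sets of 4 to 6 mice (8.67%) held a mouse far from the others by Dixon's ratio of the gap to the range, where chance marks about 1 in 20. The sets share mice, and those over all nuclei hold the nuclei of the classes, so they are not independent. No share over all genes is given for this rule, so the count does not set the members apart from other genes. The values of Per1 were 24.7 CPM in NP 2 against 15.8 in the nearest NP mouse in dentate granule-like nuclei, and 38.6 against 21.9 over all nuclei. Arntl was also far out in NP 2, at 65.4 CPM against 52.7 in dentate granule-like nuclei, 63.8 against 24.3 in microglia-like nuclei (35 UMIs) and 75.6 against 61.3 over all nuclei, and so was Tef in dentate granule-like nuclei, at 163 against 128.8 CPM. These 6 values all stand in the mouse of batch 1 that held 3.11% of its oligodendrocyte-like nuclei in cluster 0.

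In stress RE 3, Dbp was at 31.2 CPM in microglia-like nuclei (20 UMIs) against 20.1 in the nearest stress RE mouse and at 32.5 against 18.5 over all nuclei, and Ciart was at 9.76 against 5.20 CPM over all nuclei. That mouse also had the highest summed level of ribosomal protein genes in dentate granule-like nuclei, 4859 CPM. Dbp in NP 1 was at 16.8 CPM against 12.53 in oligodendrocyte-like nuclei.

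The other values were Nr1d2 in stress RE 2, at 84.4 CPM against 107.8 in oligodendrocyte-like nuclei, Arntl in control RE 1, at 20.7 against 27.6 CPM in the same class, and Bhlhe41 in NP 3, at 78.8 against 61.9 CPM in microglia-like nuclei (56 UMIs). The estimate of free RNA was 132% of the Arntl level in oligodendrocyte-like nuclei, so that this Arntl value cannot be told from background, and it was 85.0% for Arntl in microglia-like and 73.15% for Dbp in oligodendrocyte-like nuclei. The cause of these values was not tested.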

How the results depend on the processing

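No paired analysis was possible because the labels give no replicate numbers shared between groups. Chosen after seeing the data were oligodendrocyte-like cluster 0 alone, batches 2 and 3 alone for the group contrasts and correlations, residuals after group alone, after batch alone or after the ribosomal protein gene level, and free RNA subtracted in the batch test. In the 10 large classes the group contrasts gave 0 member calls with other size factors, no filter, batch as a term, batches 2 and 3 alone and free RNA subtracted, and DESeq2 gave 1 for stress RE minus NP (Per2 in CA3-like nuclei, log2 difference -0.54, DESeq2 adjusted p 0.0495). Leaving out each mouse was run in the 4 main classes and gave 0 to 0, and was not run for Per2 in CA1-like and CA3-like nuclei.

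In the batch test, dentate granule-like nuclei gave 3 calls, 1 with batches 2 and 3 alone and 1 to 5 without each mouse. Astrocyte-like nuclei gave 0, but 2 with no filter on low counts, 2 with DESeq2, 1 with batches 2 and 3 alone and 0 to 1 without each mouse. Oligodendrocyte-like nuclei gave 0, but 1 with no filter, 1 with DESeq2 and 0 to 1 without each mouse, and microglia-like nuclei 0 to 0.

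For correlations between classes, calls within batch 2 and within batch 3 were 0 in all 6 pairs, where 0 of all genes passed with 6 mice. Between dentate granule-like and astrocyte-like nuclei the 5 calls (34.8% of genes) became 0 without the 2 farthest mice (16.6%), 3 on ribosomal residuals (26.1%), 2 with batches 2 and 3 alone (21.3%) and 1 with free RNA subtracted (9.56%), and 4 to 6 without each mouse. In dentate granule-like against oligodendrocyte-like nuclei the 6 (46.9%) became 3 without the 2 farthest mice (27.1%), 1 with free RNA subtracted (14.96%), 1 with cluster 0 alone (22.0%) and 4 to 6 without each mouse. In dentate granule-like against microglia-like nuclei the 1 (16.7%) became 0 on residuals after group and batch (21.1%) or after batch (14.8%), 0 without the 2 farthest mice (6.27%), 0 with free RNA subtracted (5.22%), 2 with batches 2 and 3 alone (11.7%) and 0 to 2 without each mouse. Between astrocyte-like and oligodendrocyte-like nuclei the 2 (32.3%) became 0 with batches 2 and 3 alone (21.7%), 0 with free RNA subtracted (7.52%), 1 with cluster 0 alone (16.2%) and 1 to 3 without each mouse. Between astrocyte-like and microglia-like nuclei the 2 (16.7%) became 0 on residuals after group and batch (18.2%), 1 after group (19.96%), 1 after batch (14.5%), 1 without the 2 farthest mice (7.78%), 1 on ribosomal residuals (13.3%), 0 with free RNA subtracted (3.79%), 1 at Leiden resolution 0.5 (16.9%) and 0 to 2 without each mouse. Between oligodendrocyte-like and microglia-like nuclei the 0 (25.5%) became 1 with Spearman's rho (20.99%), 2 on residuals after group and batch (25.0%), 2 after group (28.5%), 2 with batches 2 and 3 alone (17.8%), 1 at Leiden resolution 0.5 (25.7%) and 0 to 2 without each mouse. The share in parentheses is that of all genes that passed under the same setting, and with free RNA subtracted fewer members could be used.

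The sign reversed for Ciart between dentate granule-like and astrocyte-like nuclei within batch 2 (r -0.52), and between dentate granule-like and oligodendrocyte-like nuclei for Per3 within batch 3 (-0.17), Dbp with free RNA subtracted (-0.21) and Tef with cluster 0 alone (-0.29). Of the 16 correlation calls, 9 remained without each mouse. The other 7 were lost without NP 4 for Per3 between dentate granule-like and astrocyte-like nuclei (adjusted p 0.0571), without any of 4 mice for Ciart (0.0598 to 0.106) and 3 for Dbp, among them stress RE 3 (0.0506 to 0.176), between dentate granule-like and oligodendrocyte-like nuclei, 5 for Bhlhe41 with microglia-like nuclei (0.0520 to 0.175), and, in pairs of glia, 9 for Nr1d2 (0.0516 to 0.0803), 11 for Per1 (0.0520 to 0.100) and 11 for Tef (0.0523 to 0.0876), all permutation tests. The mean over nuclei of CPM per nucleus moved Nr1d2 in dentate granule-like nuclei to 64.3 CPM, and the other 199 level values moved by less than the SD over mice. The cause of these changes was not tested. Counts as low as 3 UMIs per mouse limit the microglia-like values.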
